A study of Saccharomyces cerevisiae with 2 samples.

Results

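Domains III and IV of the 25S rRNA were examined in the CRAC data of Rbp95, an assembly factor of early pre-60S particles. The members were the nucleotides at positions 4702 to 5631 of the 35S pre-rRNA, which are nucleotides 1451 to 2380 of the 25S rRNA, 930 of the 6858 nucleotides of the pileup. They were taken by position alone, so no measured value decided which nucleotides were included. In the R64 assembly this region lies at chrXII:452802-453731 on the minus strand, within the rRNA gene RDN25-1, and again at chrXII:461939-462868 in RDN25-2. Reads of the rDNA copies cannot be told apart, so all values refer to their sum. The borders are approximate, since the region also contains parts of the central core of the 25S rRNA that join domains III and IV (domain 0), among them helix H61 and a segment next to helix H72.

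In CRAC, RNA is crosslinked by UV light to the proteins that touch it, a tagged protein is isolated with its RNA and the RNA fragments are sequenced, so that piled-up reads mark contacted RNA and substitutions or deletions can mark the crosslinked nucleotide. One library came from BY4741 cells that express Rbp95 with a C-terminal His6-TEV-protein A tag (HTP) from its own locus. The other came from untagged wild-type cells, given as BY4741 in the sample labels and as BY4742 in the methods. Cells of both strains were grown in minimal medium with glucose and without tryptophan to an OD of 0.6 and crosslinked for 100 s. The submitted design text speaks of Nap1_HTP, whereas the title of the tagged sample reads RBP95-HTP and was followed here. Each condition had 1 library, so differences between the libraries lack a replicate check and are given without p-values.

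During ribosome assembly the 25S rRNA is folded domain by domain. Domain IV forms much of the face of the 60S subunit that meets the 40S subunit, with helix H69 reaching towards the decoding center, and it carries ES27L, a long and mobile expansion segment near the exit of the peptide tunnel. Domain III lies at the solvent side around this exit. Both domains join the stably folded core after domains I, II and VI, and domain IV holds many of the pseudouridines and methylated nucleotides of the yeast large subunit.

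The covered stretches are shown first, because reads, ends and altered nucleotides all fall within them. Rbp95-HTP reads covered 9 stretches of the region. Sequences are written as DNA, 5′ to 3′, as the deposited reference gives them. In 4 of the stretches capitals mark the core, which are the nucleotides that all reads of the stretch had in common.
Nucleotides 1524 to 1570, domain III, chrXII:453612-453658: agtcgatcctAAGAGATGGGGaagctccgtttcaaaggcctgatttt
Nucleotides 2147 to 2215, domain IV, chrXII:452967-453035: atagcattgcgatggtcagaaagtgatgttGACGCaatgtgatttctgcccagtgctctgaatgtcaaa
Nucleotides 2295 to 2319, domain IV, chrXII:452863-452887: aattAGTGACGCGCATGAATGGatt
Nucleotides 2345 to 2377, next to helix H72, chrXII:452805-452837: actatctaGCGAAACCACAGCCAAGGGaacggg

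These pileups hold counts, that is, the number of reads (hits) over each nucleotide. The authors limited each pileup to 100000 reads. The upward steps of the hits along the 35S pre-rRNA, a lower bound of the number of reads, added up to 97296 reads with Rbp95-HTP and 99994 reads in the control. Reads were on average 30.0 nucleotides long with Rbp95-HTP and 40.2 nucleotides long in the control. With Rbp95-HTP, hits were highest at nucleotide 3026 of the 25S rRNA in helix H95, with 66665 hits, and the peak around it held 66.9% of all 35S hits. Heights elsewhere are therefore relative to this peak, and the depth of the libraries is unknown. The labels give 16 cycles of PCR, and no source used here says whether PCR duplicates were collapsed. Intervals below treat each read as an independent draw, so they cover counting error only and are too narrow where reads are copies of a molecule.

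Domains III and IV received 98633 hits from the Rbp95-HTP library and 197 hits from the control. The region spans 13.6% of the 35S pre-rRNA and took 3.37% of all hits in the Rbp95-HTP pileup, compared with 0.00489% in the control pileup. The control pileup drawn in the publication appears to have peaks within this region that are missing from the deposited control pileup, and the sources used here do not say why. Every control value and every ratio given here therefore describes the deposited pileup only and may not hold for the control as drawn. With this limit, the ratio of these shares was 689. Outside the peak at helix H95 the region held 10.2% of the 35S hits of the Rbp95-HTP library, nearer to its share of the length. In reads, 3103 began in the region with Rbp95-HTP, or 3.19% of the 35S reads (95% Wilson interval 3.08 to 3.30%), compared with 5 reads or 0.00500% in the control (0.00214 to 0.0117%). The ratio of the read shares was 638, with an exact interval of 273 to 1966 that covers counting error only.

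This contrast differed along the 35S pre-rRNA. With Rbp95-HTP the mean was 106 hits per nucleotide in domains III and IV and 111 hits per nucleotide in the 25S rRNA before them (nucleotides 1 to 1450). After them, outside the peak at helix H95, it was 486 hits per nucleotide. In the control the mean was 0.212 hits per nucleotide in domains III and IV, 1467 before them and 801 after them. The high ratio in domains III and IV thus went with a deposited control that was almost empty there, while the Rbp95-HTP level was close to that of the 25S rRNA before them. An almost empty control was not particular to these domains. Mean hits per nucleotide in the 18S rRNA were 74.5 for Rbp95-HTP but 0.233 for the control, and those in ITS1 were 76.6 and 0.205. ITS2 had a mean of 55.0 hits per nucleotide with Rbp95-HTP and no control hit. All control values of the region rest on 5 reads.

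**Figure D1:**
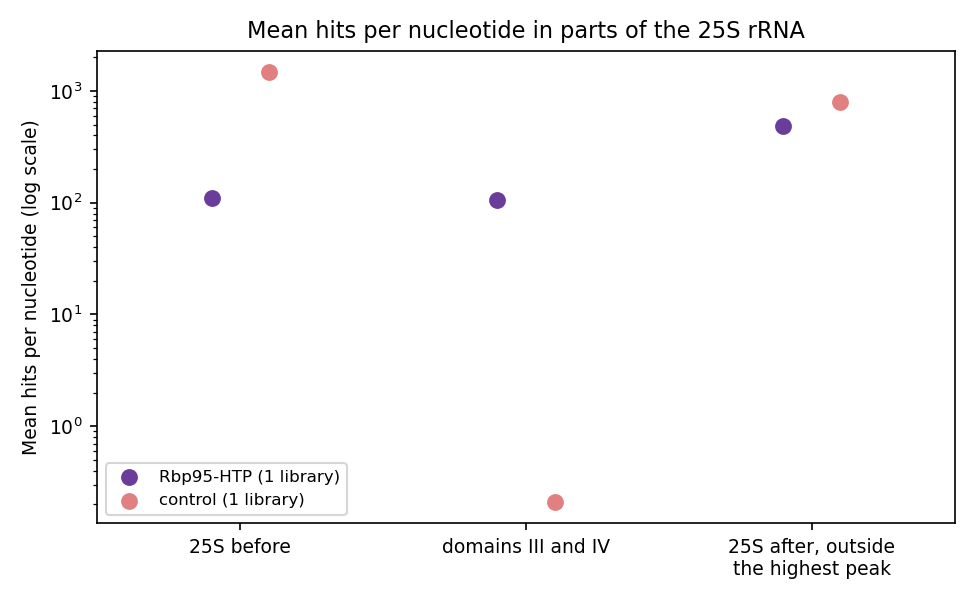
Mean hits per nucleotide (log scale) in the 25S rRNA before domains III and IV, in these domains, and after them outside the peak at helix H95, for the Rbp95-HTP library and the control (1 library each, no error bars). The Rbp95-HTP points for the first 2 parts lie at 111 and 106 hits, while the control drops from 1467 to 0.212 hits.

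Rbp95-HTP reads covered 603 of the 930 nucleotides, or 64.8%, against a background of 56.5% over the whole 35S pre-rRNA. This did not stand out within the 25S rRNA, which was covered to 61.5% before these domains and to 75.9% after them, outside the peak at helix H95. The control covered 182 nucleotides, or 19.6%, against 18.8% over the 35S pre-rRNA. Its coverage was 19.9% in the 25S rRNA before these domains and 30.5% after them, outside that peak. By a fold rule, which asks for at least 10 Rbp95-HTP hits and a 10-fold higher share than in the control, with control hits set to at least 3, 545 of 552 nucleotides passed (98.7%). Over the 35S pre-rRNA 93.2% passed, so that most nucleotides covered by the Rbp95-HTP library pass this rule wherever they lie. No nucleotide of the region had more than 2 control hits, so the control was set to 3 at every one. Within the region the rule thus depended on the Rbp95-HTP hits alone and did not compare nucleotides by their control hits. The 7 nucleotides that failed, 1834 to 1840, had 17 Rbp95-HTP hits each.

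**Figure D2:**
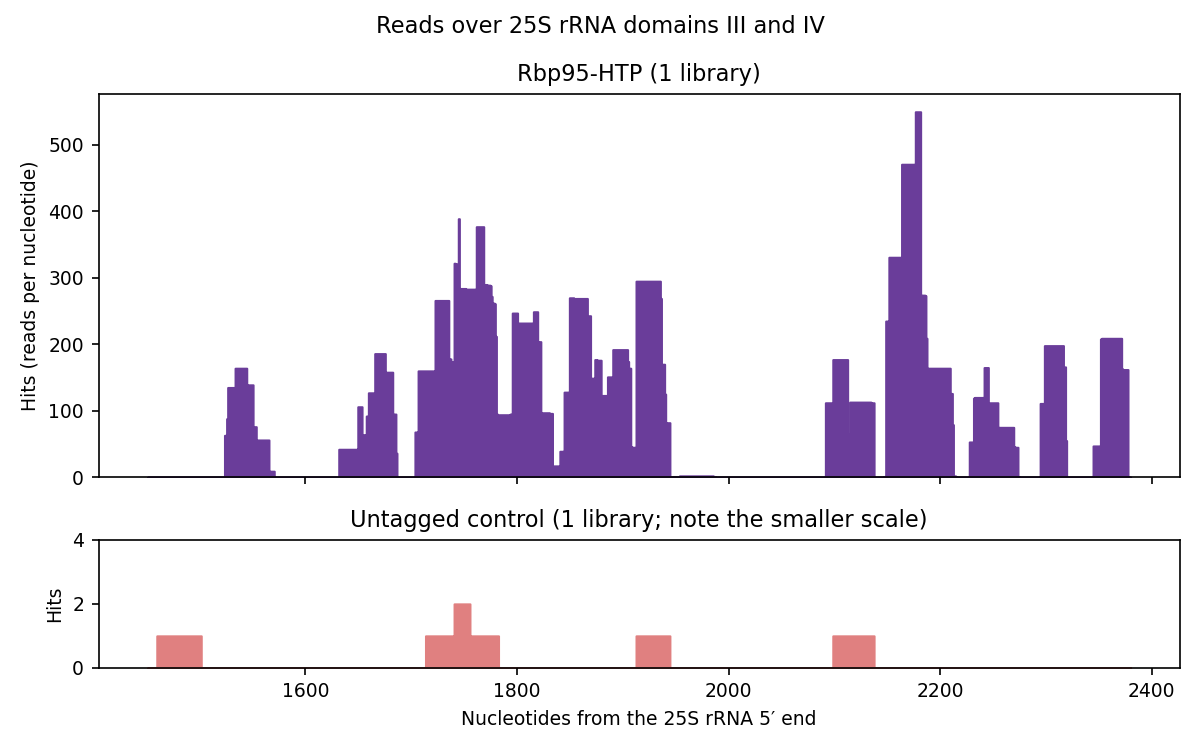
Hits per nucleotide along domains III and IV, plotted by distance from the 5′ end of the 25S rRNA, for Rbp95-HTP (top) and the control (bottom, smaller scale). Rbp95-HTP reads form 9 stretches with a maximum of 550 hits, and the control has at most 2 hits.

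The 9 stretches were 25 to 241 nucleotides long, with a median of 47. The longest, from nucleotide 1704 to 1944, ran from domain III through the 5′ strand of helix H61 into domain IV. It held 49.5% of the hits of the region and had a maximum of 389 hits at nucleotide 1745. The stretch with the highest point of the region, from 2147 to 2215 in domain IV, held 19.3% of the hits. The other 7 stretches held between 0.0730% and 6.07% each. The weakest of them, from 1948 to 1987, consisted of 2 reads.

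The highest nucleotides of the region were 2177 to 2181 with 550 hits each and no control hit. This was 0.825% of the height of the peak at helix H95, and 7 peaks elsewhere on the 35S pre-rRNA were higher when peaks were taken at least 100 nucleotides apart. All 550 reads of this stretch had nucleotides 2177 to 2181, the capitals gacgc in the sequence shown above, in common. They began at nucleotide 2149 (234 reads), 2164 (140 reads), 2152 (96 reads), 2177 (79 reads) and 2147 (1 read). At nucleotide 2181, 276 of them ended. By definition the core runs from the last start to the first end, and here the first end was also the most frequent one. Reads were counted by the steps of the hits, so a start and an end that cancel would be missed.

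The next peaks were at nucleotide 1745 with 389 hits, at 1913 with 295 hits, at 2353 with 209 hits and at 1534 with 164 hits. The control had 2 hits at nucleotide 1745, 1 hit at 1913 and none at the other 2 nucleotides. A core shared by all reads was also found in other stretches. In the stretch from 2345 to 2377 all 209 reads covered nucleotides 2353 to 2371. In the stretch from 2295 to 2319 all 198 reads covered nucleotides 2299 to 2316. In the stretch from 1524 to 1570 all 164 reads covered nucleotides 1534 to 1544. Of the 8 stretches with more than 2 reads, 5 had such a core, the last being nucleotides 2242 to 2245 in the stretch from 2228 to 2274 with 165 reads. No core had a control hit. Cores were not counted outside domains III and IV, so whether they are particular to these domains was not tested.

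Gaps without any Rbp95-HTP hit separated the stretches. The longest, nucleotides 1988 to 2091, spans 104 nucleotides and falls into the arm of ES27L, and the control had no hit there either. Its GC content was 54.8%. A gap of 73 nucleotides, from 1451 to 1523, opened the region, and it was the only gap with control hits (42 hits, from 1 read). Some nucleotides of the region are known to be modified, and those given here are not a full list and were picked with their values in view. Methylated nucleotides also lay in shorter gaps, and examples from 3 of these gaps are given. The gap from 2138 to 2146 contained A2142, which carries a methyl group on the base set by Bmt2. The gap from 2216 to 2227 contained A2220, a target of 2′-O-methylation guided by snR47. C2278, the target of the methyltransferase Rcm1, lay in the gap from 2275 to 2294. The relation of these gaps to the modifications was not tested, and other known modified nucleotides were covered. U1888, methylated with the guide snR62, had 151 hits of which 1 was substituted, and U2314, a pseudouridine guided by snR86, had 198 hits and no substitution. At the pseudouridines 2258, 2260, 2264 and 2266 of helix H69 the 75 hits each had no substitution, where the smallest share that 3 hits can show is 4.0%.

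Read starts in the Rbp95-HTP library were few and large, which was not particular to domains III and IV. In the rest of the 35S pre-rRNA, outside the peak at helix H95, 31287 reads began at 250 positions. The 3103 reads of domains III and IV began at 46 positions and ended at 70 positions, and their mean length was 31.8 nucleotides. A total of 29 start positions held 90% of the reads, and 37 positions with at least 20 reads each held 98.9%. Only 7 positions had a start of 1 read. The largest start, at nucleotide 1913 behind helix H61, had 255 reads or 8.22% of the reads of the region. The starts that followed were at 2149 with 234 reads, 2352 with 161 reads, 1796 with 152 reads and 1741 with 148 reads. The next 5, at 1850, 2164, 2092, 2295 and 1723, had 142, 140, 112, 111 and 106 reads.

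The largest start belonged to a fragment at the beginning of domain IV whose 3′ ends were spread. Its sequence, from nucleotide 1913 to 1944 with the first nucleotide in capitals, is at chrXII:453238-453269.
Nucleotides 1913 to 1944: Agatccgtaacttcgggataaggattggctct
Of the reads over this fragment, 99 ended at nucleotide 1936, 82 at 1944, 45 at 1939, 43 at 1940 and 26 at 1935. A spread of this kind was not seen at all starts. Of the 37 starts with at least 20 reads, 12 (32.4%) were followed within 50 nucleotides by an end of the same size, with a tolerance of 2%. They included 63 reads from 1524 to 1550, 111 reads from 2295 to 2318 and 112 reads from 2092 to 2112. The largest was at nucleotide 2352 with 161 reads, where 162 reads ended at 2377. These matched pairs spanned 18 to 39 nucleotides with a median of 22.5. Reads of identical start and end can be copies of a molecule or separate molecules cut at the same bonds, which cannot be told apart in a pileup. The share of matched starts was 32.7% of 49 starts in the 25S rRNA before these domains and 30.7% of 75 starts after them, outside the peak at helix H95, near the value in domains III and IV.

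**Figure D3:**
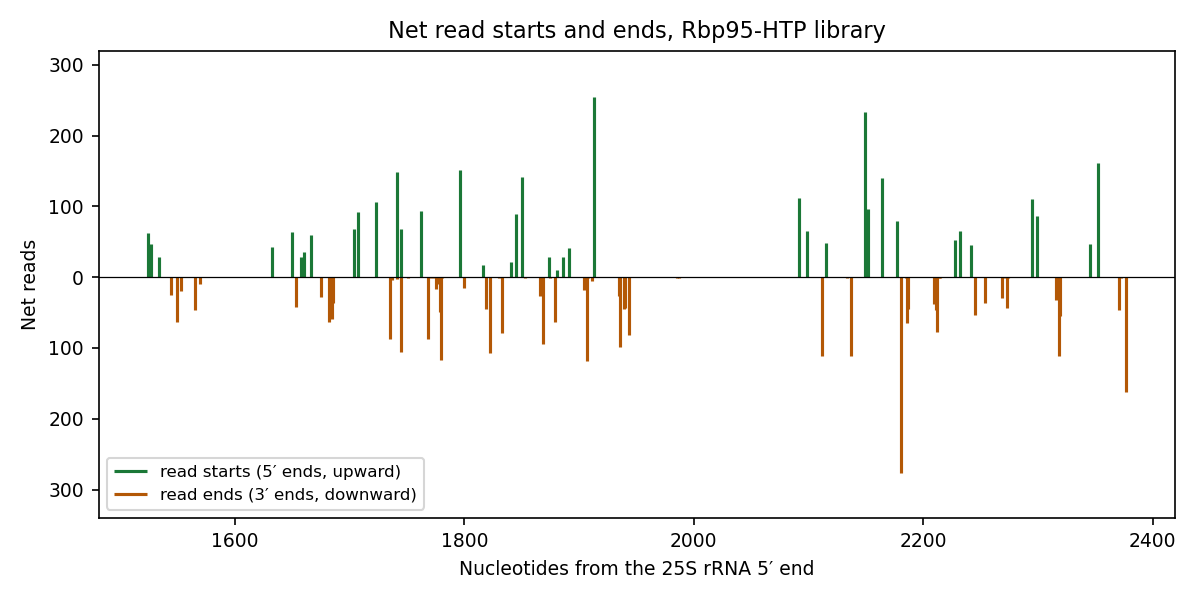
Net read starts (upward) and net read ends (downward) of the Rbp95-HTP library along domains III and IV, by distance from the 5′ end of the 25S rRNA. The largest start, 255 reads, is at nucleotide 1913, and the largest end, 276 reads, at nucleotide 2181.

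The bases at the borders of the reads were strongly uneven. The RNA was partially digested with RNace-IT, a mixture of RNase A, which cuts after C and U, and RNase T1, which cuts after G. Of the Rbp95-HTP reads in domains III and IV, 64.1% began after a T (U in the RNA) and 32.7% after a C, so that 96.9% followed a pyrimidine, and 0.0645% followed an A. Over start positions rather than reads, 40 of 46 followed a pyrimidine. The first base of the read was an A in 74.4% of the reads, although A makes up 25.9% of the region. At the 3′ end the last base was a C, G or T in 93.9% of the reads, with 33.8% C, 29.4% G and 30.7% T. G was thus rare before the 5′ ends (3.06%) and common at the 3′ ends. In the rest of the 35S pre-rRNA outside the peak at helix H95, 90.5% of the reads followed a pyrimidine and 76.0% began with an A. Weighted by reads, the bases differed in other respects. There, C preceded more reads than T (48.0% and 42.5%), 6.53% followed an A, and the last base was an A in 18.8% of the reads, compared with 6.09% in domains III and IV. Over positions, T preceded more starts than C there (111 and 92 of 250) and in domains III and IV (25 and 15 of 46). The last base was an A at 79 of 381 end positions there and at 10 of 70 in domains III and IV. The rest of the 35S pre-rRNA had 31287 net starts but 28050 net ends, so these are not all of the same reads. These differences were not tested.

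**Figure D4:**
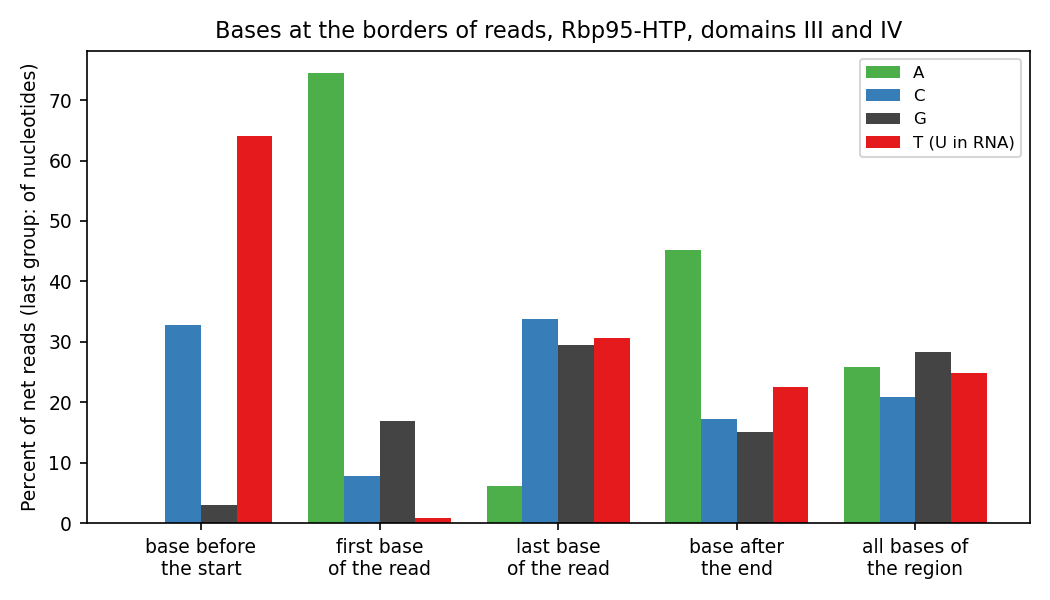
Base before the start, first base, last base and base after the end of the Rbp95-HTP reads in domains III and IV, in percent of 3103 net reads, beside the base composition of the region in percent of its 930 nucleotides. T precedes 64.1% and A begins 74.4% of the reads, while each base makes up 20.9 to 28.4% of the region.

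The control reads could be read off one by one, since no more than 2 overlapped and reads were limited to 50 nucleotides. They ran from nucleotide 1460 to 1501, 1714 to 1755, 1741 to 1782, 1913 to 1944 and 2099 to 2137. Of these 5 reads, 3 began at a nucleotide where Rbp95-HTP reads also began. Rbp95-HTP starts made up 46 of the 930 nucleotides (4.95%). This share is no chance level, since 96.9% of the Rbp95-HTP reads followed a pyrimidine and starts could not fall on every nucleotide alike. The overlap was not tested. These shared starts were 1741, with 148 Rbp95-HTP reads, 1913, with 255, and 2099, with 65. The reads at 1913 and 2099 also ended where Rbp95-HTP reads ended, with 82 and 112 of them. The remaining reads, from 1460 and 1714, began where the Rbp95-HTP library had no start. The 5 reads carried 2 substitutions, at T1777 and A2117, and no deletion. Neither nucleotide was altered in more than 1 hit of the Rbp95-HTP library, which had 262 hits at T1777 and 113 hits at A2117.

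Altered nucleotides were rare in the Rbp95-HTP reads over domains III and IV. The library had 533 substitutions and 2 deletions there, so that 0.542% of the hits were altered. The deletions were at G1919 and C2181, with 1 each. The altered share was within the range of other parts. It was 0.598% in the 25S rRNA before these domains and 0.380% after them, outside the peak at helix H95. In the 18S rRNA it was 1.03%. With minimums of 100 hits and 10% altered, 4 of 423 nucleotides of the region were called altered (0.946%), which is near the background of 1.17% over the 35S pre-rRNA. They were C1527, T1815, T2209 and T2241. T2269, with 75 hits, lay below the minimum of 100 hits and was added after its value was seen. Together these 5 nucleotides held 49.3% of the substitutions of the region, and without them 0.278% of the hits were altered. The 4 called nucleotides alone held 40.9% of the substitutions. Since all 5 nucleotides were picked for their altered shares, these values follow in part from the selection. No deletion was found at any of them.

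These nucleotides are shown in capitals within their surroundings, since they are the positions at which the largest shares of hits differed from the reference.
C1527, domain III, chrXII:453640-453658: agtCgatcctaagagatgg
T1815, domain III, chrXII:453352-453382: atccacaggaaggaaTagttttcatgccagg
T2209, domain IV, chrXII:452967-452988: gcccagtgctctgaaTgtcaaa
T2241, domain IV, chrXII:452926-452954: aaccaagcgcgggTaaacggcgggagtaa
T2269, domain IV, chrXII:452908-452928: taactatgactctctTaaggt
Of the 5 nucleotides 4 are a T, which is a U in the RNA. No motif was searched.

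At C1527, 64 of 135 hits were substituted, or 47.4% (95% Wilson interval 39.2 to 55.8%). At T1815 it was 79 of 232 hits, or 34.1% (28.3 to 40.4%). T2241 had 37 of 120 hits, or 30.8% (23.3 to 39.6%). The intervals of these 3 nucleotides overlap. T2209, in the stretch with the highest peak, had 38 of 164 hits, or 23.2% (17.4 to 30.2%). T2269, in the part of the stretch from 2228 to 2274 that forms helix H69, had 45 of 75 hits, or 60.0% (48.7 to 70.3%). The control had no hit at any of the 5 nucleotides, so its altered share there is unknown. At the directly neighboring nucleotides the highest altered share was 1.14%, just before C1527.

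**Figure D5:**
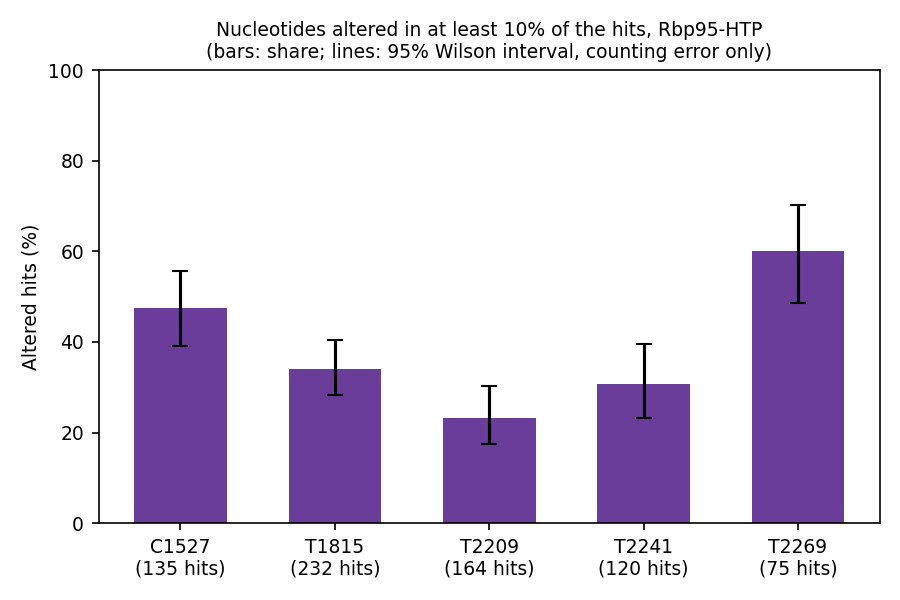
Altered share of the hits at the 5 nucleotides of domains III and IV named as altered with Rbp95-HTP (10% or more of the hits), with 95% Wilson intervals that cover counting error only. The shares range from 23.2% at T2209 to 60.0% at T2269, with 75 to 232 hits.

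At each of the 5 nucleotides the number of substituted hits was within 1 read of the size of a nearby start or end of reads, picked as the nearest in size after the values were seen. At C1527, the 64 substitutions stand beside 63 reads that began at nucleotide 1524 and 63 that ended at 1550. At T1815, 79 reads were substituted and 79 ended at nucleotide 1833. At T2241 the 37 substitutions equal the 37 reads that ended at nucleotide 2254, and at T2209 the 38 substitutions equal the 38 reads that ended on this very nucleotide. At T2269, 45 reads were substituted, 45 began at nucleotide 2242 and 44 ended at 2273. Whether the substituted reads are the reads of these ends cannot be seen in a pileup and was not tested.

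At the remaining 419 nucleotides of this depth, no more than 3.93% of the hits were altered. Of these, 254 had no altered hit, and the median share was 0%. The highest share was at T1737, with 7 of 178 hits (95% Wilson interval 1.92 to 7.89%), where 4 reads ended. By base, 1.18% of the hits on T were altered over nucleotides of this depth, 0.610% of those on C, 0.322% of those on A and 0.207% of those on G. Outside domains III and IV the order was different, with 4.19% for C, which includes the highest peak, and 0.419% for T. The higher value for T in domains III and IV rests on 3 of 89 T nucleotides. That for C includes the 64 substitutions at C1527, 1 of 81 C nucleotides.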

How the data were processed

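The data are 2 CRAC libraries, 1 of Rbp95-HTP and 1 of the untagged control. Reads were trimmed and filtered by the authors with Flexbar, aligned with Novoalign (build R64 per the labels) and piled up with pyPileup, with options -L 50 and a limit of 100000 reads. Versions are not given in the sources used here. The deposited 35S files hold counts of hits, substitutions and deletions per nucleotide. Tables of RNA classes and snoRNAs were not used.

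Numbers of the 25S rRNA are the 35S position minus 3251, checked against RDN37-1 and RDN25-1 in the R64 gene table. Stretches are runs of nucleotides with at least 1 hit. Starts and ends are net upward and downward steps of the hits. An end on a nucleotide cancels against a start on the next, so these are lower bounds. Altered hits are substitutions plus deletions. Wilson intervals were computed with scipy 1.17.1 in Python 3.11.15 with numpy 2.4.6, and figures with matplotlib 3.10.9. The steps were tested on simulated pileups. With 1 library per group no test between libraries was run.

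Nucleotides named were, per library, the 5 highest peaks, the 10 largest starts, nucleotides with 100 or more hits of which 10% or more were altered (filled up to 5). Modified sites were to come from the gene table, which lists none, so those named come from general knowledge and were picked with their values in view. Region, rules and lists were chosen with earlier results of these data known. The matching of starts and ends, the cores, the bases at read borders and T2269 were chosen after the values were seen. Alternatives concerned denominators, minimum hits, fold and the kind of alteration.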

Additional observations from a re-analysis of the deposited data

How the results depend on the processing

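Of 40 alternatives, 26 left the value within 1.5 times (counts) or within a counting interval, taken over hits for shares and over reads for the ratio. Some of these 26 could not come out otherwise. Upward and downward steps had to be equal, since hits were 0 at both borders of the region, and the control had no deletion to leave out. Hits of a read are not independent, so the interval over hits is too narrow. The share of hits in domains III and IV with Rbp95-HTP was 3.67% of the 25S hits, 10.2% of the 35S hits outside the peak at helix H95 and 3.19% in reads. The control share was 0.00676% of the 25S hits, which lies within the interval over reads (0.00214 to 0.0117%). The ratio of the shares rose to 2081 when 35S hits outside that peak were the total. By construction, fewer start positions held 50% of the reads, with 10 for Rbp95-HTP and 3 for the control. The largest read start, at nucleotide 1913, was not at the highest nucleotide, 2177. Counting deletions only left 0 altered nucleotides. At a minimum of 5 or 10 hits the control had 0 covered stretches and, at 5, 10 or 100 hits, 0 covered nucleotides. For the control, altered nucleotides, their share at 100 hits and the largest start could not be varied, since it had at most 2 hits and starts of 1 read. No replicate could be left out. No paired analysis was possible because each condition has 1 library. Every control value of the region rests on 5 reads (exact Poisson interval 1.62 to 11.7).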
